A study of Homo sapiens with 4 samples.

Results

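The 46 genes described here encode the working parts of the lysosome: 13 cathepsins, 16 subunits and accessory proteins of the vacuolar proton pump (V-ATPase), 7 proteins of the lysosomal membrane, 7 other proteins of the lysosomal lumen, and the 3 transcription factors TFEB, TFE3 and MITF. They were taken by name, as the probe sets whose gene symbol is on that list, out of 22357 genes that have a probe set of their own. Each of the 46 had exactly 1 such probe set, so no choice between probe sets entered any value. This list and the related lists below were chosen with earlier results of these data known. Shares set beside those of all tested genes therefore describe the lists and test nothing.

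Expression was measured in MV4-11, an established acute myeloid leukaemia line with monocytic features and a KMT2A-AFF1 fusion. Cells were transduced with a short hairpin RNA against RUNX1, labelled as a moderate knockdown, as profound 1 or as profound 2, or with a control hairpin against luciferase. All 4 cultures were kept in 3 µM doxycycline for 24 h, so the control carries a hairpin and the drug too. RNA of each culture was read on 1 array of the whole-transcript kind, and its values are log2 signals after RMA (robust multi-array average). No difference below therefore has a replicate check or a p-value, and all 3 comparisons with the control hairpin share its single array. A gene was counted as higher or lower where it differed by at least 1.5-fold (0.585 on the log2 scale). Counts were read against the share of 12521 tested genes past the same limit, which are protein-coding genes above the median of the table (3.08 log2 units) on at least 1 array. For both profound arrays as a pair, a gene had to pass on each in the same direction.

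RUNX1 itself could be followed only on a probe set that carries the symbols of 2 genes, with levels of 4.33 on the moderate array, 4.07 on profound 1, 4.04 on profound 2 and 4.27 on the control array. The differences from control were 0.06, -0.19 and -0.22, where tested genes of like level had a robust SD of 0.23, 0.28 and 0.25, so the probe set did not show a knockdown beyond the spread of other genes on any array. RUNX3 had 8.28, 7.75 and 7.74 on the moderate, profound 1 and profound 2 arrays, against 8.17 on the control array. Its differences of -0.42 on profound 1 and -0.43 on profound 2 exceeded the robust SD of 0.22 and 0.13 at its level. The probe set of RUNX1 is dimmer, so the sizes for RUNX1 and RUNX3 cannot be compared directly. RUNX2 differed from control by -0.07, -0.06 and 0.10. The sample titles and genotypes name RUNX1 for all 3 hairpins, whereas the free-text descriptions of profound 1 and profound 2 name RUNX2 and RUNX3, so the arrays are called here by their labels. Of 8 measured markers of a myeloid leukaemia line, 7 lay above the table median on all 4 arrays, and CD14 lay below it. Among 9 markers of T and NK cells, 3 lay above the median on all arrays and 5 below it on all, CD3D and CD3E among these 5. For osteoclasts, 1 of 6 measured markers lay above the median throughout.

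Lysosomes digest material from endocytosis, phagocytosis and autophagy. The V-ATPase pumps protons into the lumen, which lets the cathepsins and other acid hydrolases work, while heavily glycosylated membrane proteins such as LAMP1 and LAMP2 line the wall, and channels and transporters release ions and breakdown products. TFEB, TFE3 and MITF can switch on many of these genes together by binding an E-box in their promoters, the core of the element known as CLEAR. Monocytes and macrophages are rich in lysosomes, and CD68 is widely used as a marker of them.

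As many lysosomal genes are known to carry this element, the promoters are shown first. RefSeq promoter windows (GRCh38.p14, from 250 bases before to 50 after a transcription start) were at hand for 32 of the 46 genes, in 47 windows. The E-box CACGTG, which reads the same on both strands, was found in 10 of the 32 genes (31.2%), against 12.2% of the tested genes with a window. By window, the shares were 21.3% of the 47, 9.12% of the windows of tested genes and 7.26% of all 35116. The longer TCACGTGA, which contains CACGTG and is also its own reverse complement, was present in 6 of the 32 genes (18.8%), against 2.12% of tested genes. It was in 12.8% of the 47 windows, against 1.6% of the windows of tested genes and 0.98% of all windows. The 6 genes are ATP6V0D1, ATP6V1G1, CTSA, GAA, LAMP1 and MCOLN1. The RUNX motif TGTGGT, searched on both strands with ACCACA as its reverse complement, was in the windows of 2 of the 32 genes, ATP6V0B and ATP6V0C. That is 6.25% of the 32, against 13.4% of tested genes. By window it was in 4.26% of the 47, against 10.3% of the windows of tested genes and 13.1% of all windows. A match is a string of letters and not a measured binding site.

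The stretches below are from GRCh38.p14, hold only bases upstream of the start and are written 5′ to 3′ on the strand of the gene, with CACGTG in capitals. They were picked after the expression values were seen. The first 5 show how the E-box sits in members with more than 1 copy. ATP6V0B, which also has 2, is not printed. The last 3 show the bases just before the start in members that lay above control on both profound arrays and have no copy. LAMP1 (chr13:113297039-113297228, plus strand) has 5 copies in the stretch and another that spans the start. MCOLN1 (chr19:7522554-7522623, plus), GAA (chr17:80101481-80101580, plus), CTSA (chr20:45891265-45891334, plus) and CTSF (chr11:66568637-66568746, minus) have 2 each. CD68 (chr17:7579538-7579637, plus), GRN (chr17:44345202-44345301, plus) and SCARB2 (chr4:76213825-76213924, minus) have 0.
LAMP1: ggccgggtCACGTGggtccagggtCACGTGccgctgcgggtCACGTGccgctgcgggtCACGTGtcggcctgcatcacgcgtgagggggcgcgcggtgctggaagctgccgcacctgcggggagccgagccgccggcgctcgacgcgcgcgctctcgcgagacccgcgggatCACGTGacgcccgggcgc
MCOLN1: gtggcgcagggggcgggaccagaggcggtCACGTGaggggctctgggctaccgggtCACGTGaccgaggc
GAA: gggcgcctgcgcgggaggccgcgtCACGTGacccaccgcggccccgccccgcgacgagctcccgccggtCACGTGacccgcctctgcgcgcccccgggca
CTSA: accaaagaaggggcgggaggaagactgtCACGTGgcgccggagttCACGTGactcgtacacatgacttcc
CTSF: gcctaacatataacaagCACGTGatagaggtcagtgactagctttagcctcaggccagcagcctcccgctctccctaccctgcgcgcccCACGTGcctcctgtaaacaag
CD68: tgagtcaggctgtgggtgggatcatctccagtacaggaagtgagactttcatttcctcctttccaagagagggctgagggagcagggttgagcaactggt
GRN: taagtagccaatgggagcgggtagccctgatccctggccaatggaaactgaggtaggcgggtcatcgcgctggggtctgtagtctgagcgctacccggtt
SCARB2: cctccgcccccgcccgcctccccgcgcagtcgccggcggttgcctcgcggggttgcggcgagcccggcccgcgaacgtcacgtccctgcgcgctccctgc

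Median differences were also taken by motif over the 32 genes with a window, which leaves out MCOLN2, PSAP, CTSO and CTSK. On profound 1 the 10 genes with CACGTG had a median difference from control of 0.06, against 0.07 in the 22 without, and on profound 2 the medians were 0.06 and 0.09. On the moderate array they were 0.05 and 0.04. For the longer TCACGTGA the medians on profound 1 were 0.11 in the 6 genes with it and 0.03 in the 26 without, and on profound 2 they were 0.06 and 0.08. Within the 10 E-box genes the differences on profound 1 ran between -0.78 for CTSF and 0.56 for GAA, which are both printed above with 2 copies.

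Of the 46 genes, 42 passed the filter on low values. CTSL, LIPA, TFEB and MITF lay below the table median on all 4 arrays, where background signal makes up much of a value and RMA understates differences. CTSF lay above the median on 3 arrays. The mean over the 4 arrays ran between 2.21 (MITF) and 10.3 (GRN), but levels of different probe sets are not comparable and are used here only across arrays. In the typical gene the highest and lowest array were 0.30 log2 units apart, the median of that range.

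**Figure D1:**
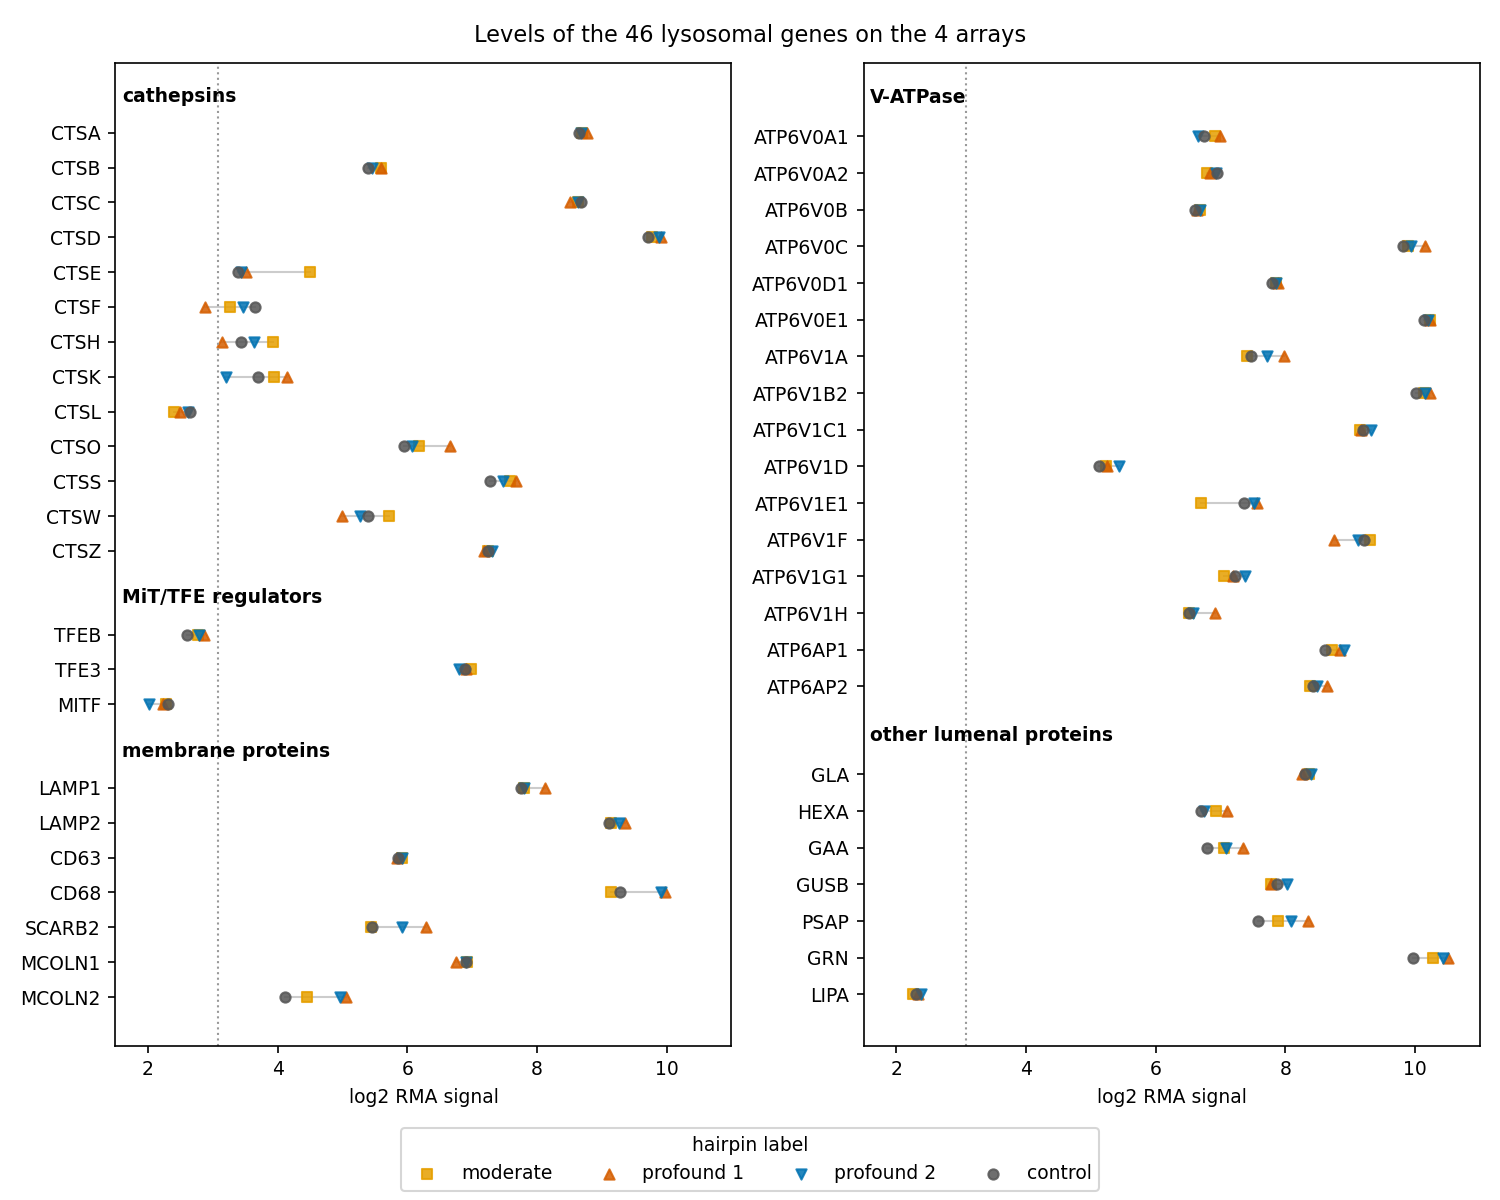
Log2 RMA signal (horizontal axis) of the 46 genes on the 4 arrays, grouped by role, with 1 symbol per array and a grey line between the lowest and the highest. The dotted line marks the table median of 3.08. Most genes keep their 4 symbols close together, whereas CTSE, MCOLN2, CTSK, ATP6V1E1, SCARB2, CD68, CTSH, CTSF and PSAP spread most widely, in that order, by 1.11 to 0.77 log2 units.

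More of the lysosomal genes lay above control than below it on each array, most of them by small amounts. The median difference from control over all 46 was 0.07 on the moderate array, 0.16 on profound 1 and 0.08 on profound 2, while the median over all tested genes lay within 0.01 of 0 in each. With the arrays centred on the tested genes the median on the moderate array was 0.03, and that of the tested genes was -0.03. Centring shifts every gene of an array equally, so the distance of the 46 from the tested genes stayed the same. Above 0 were 32, 31 and 36 of the 46, or 69.6%, 67.4% and 78.3%, beside 51.9%, 49.5% and 49.7% of tested genes. Profound 1 had the highest of the 4 levels in 24 of the 46 genes (52.2%, against 30.3% of tested genes). The control array had the lowest in 22 (47.8%, against 23.7%). Because 1 control array enters every difference, its share of low values is common to all 3 comparisons. The 46 were chosen with earlier results of these data known, so their shares are not those of a blind choice. In RNA from a whole culture, more cells with high expression and more RNA per cell cannot be told apart.

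The roles had unlike medians on profound 1. The median difference from control was 0.37 for the 7 membrane proteins, 0.39 for the 7 other lumenal proteins, 0.16 for the V-ATPase, 0.13 for the cathepsins and 0.02 for the 3 transcription factors. On profound 2 the same medians were 0.15, 0.15, 0.10, 0.04 and -0.08, in nearly the same order. Means differed from these medians where a few genes stood far out: on profound 2 they were 0.31 for the membrane and 0.23 for the other lumenal proteins, and on profound 1 the cathepsins had a mean of 0.03. On the moderate array the order was another one, with 0.02 for the membrane proteins, 0.22 for the other lumenal proteins, 0.07 for the V-ATPase, 0.21 for the cathepsins and 0.10 for the transcription factors. All 7 membrane proteins and all 7 other lumenal proteins were above control on profound 2, and 5 of 7 in each group on profound 1. On profound 2 these include LIPA, which lay below the table median. They also include MCOLN1 (0.01), HEXA (0.04), LAMP1 (0.05) and CD63 (0.05), all within the robust SD of tested genes of like level.

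**Figure D2:**
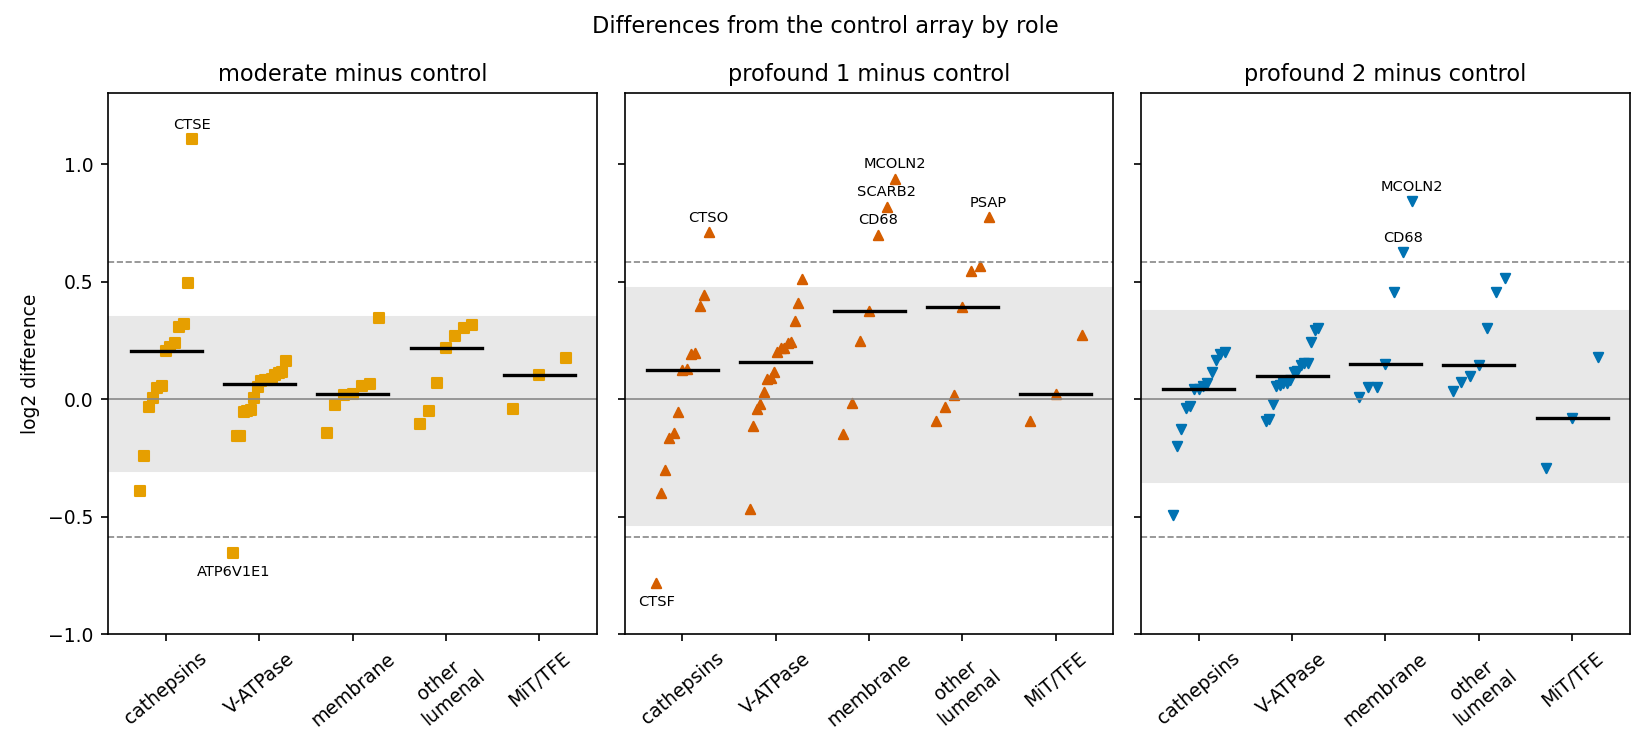
Log2 difference from the control array (vertical axis) of each gene by role, for the moderate, profound 1 and profound 2 arrays. Black bars are group medians, dashed lines mark 1.5-fold and the grey band holds the 5th to 95th percentile of all tested genes. The membrane and other lumenal groups reach highest on profound 1 and profound 2, with MCOLN2 and CD68 past the line in both panels, while CTSE and ATP6V1E1 pass it on the moderate array.

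Against control, the moderate array had 1 of the 46 genes higher (CTSE) and 1 lower (ATP6V1E1), where 0.863% of tested genes were higher and 0.447% lower. Profound 1 had 5 higher (MCOLN2, SCARB2, PSAP, CTSO and CD68) and 1 lower (CTSF), where 2.68% of tested genes were higher and 4.04% lower. Profound 2 had 2 higher (MCOLN2 and CD68) and 0 lower, where the shares were 1.2% and 1.01%. MCOLN2 and CD68 were thus higher on both profound arrays and 0 genes were lower on both, where 0.335% of tested genes were higher and 0.303% lower on both. In percent, 10.9% of the 46 were higher on profound 1 and 4.35% on both. The counts of 1 in 46 cannot be told apart from the shares of tested genes. On the remaining 37 genes, which passed the limit in none of the 6 comparisons made, differences from control ran between -0.24 and 0.49 on the moderate array, -0.47 and 0.56 on profound 1, and -0.29 and 0.46 on profound 2.

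Among the membrane proteins, CD68 had 9.14 on the moderate array, 9.98 on profound 1 and 9.91 on profound 2, against 9.28 on the control array. Both profound arrays stood above the moderate and the control array, which lay close together. CD68 is a LAMP-family glycoprotein of late endosomes and lysosomes in macrophages. It was 1.62-fold higher on profound 1 and 1.54-fold on profound 2 than on the control array (log2 differences of 0.70 and 0.62). Tested genes of like level had a robust SD of 0.22 and 0.13 in these comparisons, a spread over genes that is no replicate error. Of the tested genes, 0.176% were at least as far above control on both profound arrays. Against the moderate array CD68 was also higher on both, by 0.84 and 0.77.

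MCOLN2, a cation channel of endosomes and lysosomes related to MCOLN1, had 4.46 on the moderate array, 5.05 on profound 1 and 4.96 on profound 2, against 4.11 on the control array. The order was as for CD68, except that the moderate array lay between. The differences from control were 0.35, 0.94 and 0.84 (1.27-fold, 1.92-fold and 1.79-fold), where the spread at this level was 0.19, 0.28 and 0.21. Of the tested genes, 0.04% lay as far or farther above control on both profound arrays. MCOLN1, which releases calcium from lysosomes and has 2 E-boxes in the stretch printed above, differed from control by 0.02, -0.15 and 0.01.

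SCARB2 is a lysosomal membrane protein that also serves as a sorting receptor. Its levels were 5.44 on the moderate array, 6.28 on profound 1 and 5.92 on profound 2, against 5.46 on the control array. It was thus level with control on the moderate array and higher on the others, by 0.82 (1.76-fold) on profound 1 and by 0.46 (1.37-fold) on profound 2, which falls short of the limit. The spread at its level was 0.28 and 0.18.

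The proteins that line the wall differed less from control. LAMP1 had 7.81 on the moderate array, 8.13 on profound 1 and 7.80 on profound 2, against 7.75 on the control array, so that profound 1 alone stood apart, by 0.37. LAMP2, which also serves chaperone-mediated autophagy, differed from control by 0.02, 0.25 and 0.15. The tetraspanin CD63 differed by 0.06, -0.02 and 0.05.

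Among the other lumenal proteins, PSAP and GRN were highest on profound 1, then profound 2, then the moderate array, and lowest on the control array. PSAP, the precursor of the saposins that help break down sphingolipids, had 7.89 on the moderate array, 8.35 on profound 1 and 8.09 on profound 2, against 7.58 on the control array. The differences were 0.31, 0.77 and 0.52 (1.24-fold, 1.71-fold and 1.43-fold), and profound 1 alone passed the limit. The spread at this level was 0.11, 0.22 and 0.13. GRN, which encodes progranulin and whose product binds prosaposin, had 10.27 on the moderate array, 10.51 on profound 1 and 10.43 on profound 2, against 9.97 on the control array. Its differences of 0.30, 0.54 and 0.46 stayed under the limit on every array. Of the tested genes, 0.216% lay as far above control as PSAP or farther on both profound arrays, and 0.743% as far as GRN.

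GAA, the enzyme that degrades lysosomal glycogen, had 7.06 on the moderate array, 7.36 on profound 1 and 7.09 on profound 2, against 6.79 on the control array. Its difference on profound 1 was 0.56 (1.48-fold), just short of the 1.5-fold limit, and those on the moderate array and profound 2 were 0.27 and 0.30. HEXA, which takes part in ganglioside breakdown, differed by 0.22, 0.39 and 0.04. GLA and GUSB, which remove galactose and glucuronic acid, did not exceed 0.15 in either direction. The acid lipase LIPA lay below the table median, with levels between 2.26 and 2.39.

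**Figure D3:**
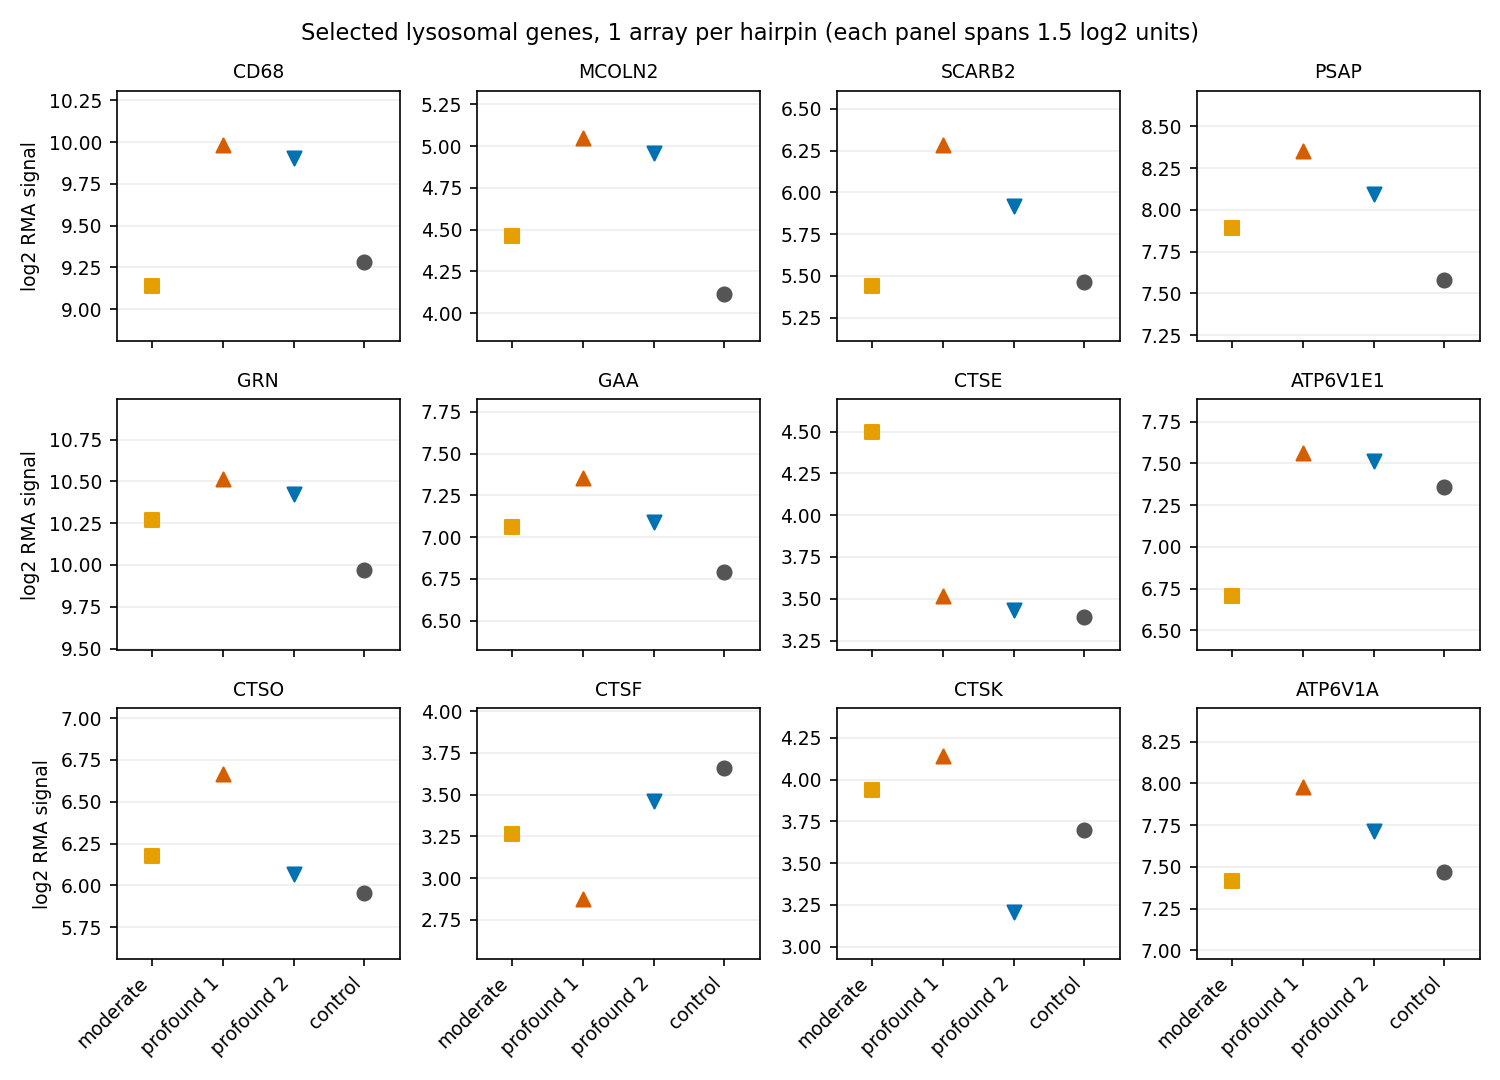
Log2 RMA signal (vertical axis) on the moderate, profound 1, profound 2 and control arrays for 12 genes, 1 point per array and 1.5 log2 units per panel. CD68, MCOLN2 and SCARB2 stand higher on both profound arrays than on the moderate and control arrays, CTSE stands higher and ATP6V1E1 lower on the moderate array alone, and CTSO and CTSF stand apart on profound 1.

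The V-ATPase consists of a V1 sector in the cytosol, which splits ATP, and a V0 sector in the membrane, which carries protons. The largest difference in the pump was that of ATP6V1E1, a subunit of the outer stalk that joins both sectors. It had 6.71 on the moderate array, 7.56 on profound 1 and 7.51 on profound 2, against 7.36 on the control array. The moderate array was the low one, with a difference from control of -0.65 (1.57-fold), where the spread at this level was 0.13 and 0.232% of tested genes lay as far below. Profound 1 and profound 2 stood 0.20 and 0.15 above control, and 0.85 and 0.81 above the moderate array.

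ATP6V1A, the catalytic subunit, had 7.42 on the moderate array, 7.98 on profound 1 and 7.71 on profound 2, against 7.47 on the control array. It was 0.51 above control on profound 1 (1.42-fold) and 0.24 on profound 2, under the limit on both. ATP6V1H, a regulatory subunit, followed on profound 1 at 0.41 and differed by 0.07 on profound 2. ATP6V1F, part of the central rotor, differed from control by -0.47 on profound 1 and by 0.09 and -0.09 on the moderate array and profound 2. The partners in the V1 sector thus did not share a direction on profound 1, where 5 of its 8 genes lay above control with a median of 0.16. On profound 2, 7 of the 8 lay above control, with a median of 0.15.

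The V0 sector varied less. Its 6 genes had medians of 0.08 on the moderate array, 0.09 on profound 1 and 0.06 on profound 2, and the farthest of them was ATP6V0C, the main subunit of the proton-carrying ring, at 0.33 on profound 1. ATP6V0E1, a small membrane subunit, had 10.23, 10.24 and 10.20 on the moderate, profound 1 and profound 2 arrays, against 10.15 on the control array. The accessory proteins ATP6AP1 and ATP6AP2 differed by 0.11 and -0.05 on the moderate array, by 0.24 and 0.22 on profound 1, and by 0.30 and 0.07 on profound 2. Over all 16 pump genes, 12 lay above control on profound 1 and 13 on profound 2.

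The cathepsins were mixed in direction, with 7 of 13 above control on profound 1 and 8 on profound 2. Of these, CTSD, CTSB, CTSZ and CTSA differed little from control. CTSD, an aspartic protease, had 9.78 on the moderate array, 9.92 on profound 1 and 9.89 on profound 2, against 9.72 on the control array. CTSB, CTSZ and CTSA, the last a serine carboxypeptidase, differed from control by at most 0.21 on any array. CTSC, which activates the serine proteases of granules, differed by -0.16 on profound 1. CTSS, which trims the invariant chain of MHC class II, was above control by 0.31, 0.40 and 0.19 on the moderate, profound 1 and profound 2 arrays.

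CTSE had the largest difference among the 46 genes in the 6 comparisons. This aspartic protease of endosomes, known from stomach and immune cells, had 4.50 on the moderate array, 3.52 on profound 1 and 3.43 on profound 2, against 3.39 on the control array. The moderate array stood alone, 1.11 above control (2.15-fold), where the spread at this level was 0.23 and 0.024% of tested genes lay as far above. The profound arrays differed from the moderate array by -0.98 and -1.06 and lay within 0.13 of control. The 5 tested genes outside the 46 whose centred values over the 4 arrays were nearest to those of CTSE were CORO2A, MMP25, IGLL1, KCNK17 and GOLGA6L2, at Euclidean distances of 0.24, 0.25, 0.26, 0.30 and 0.30 log2 units. CORO2A, the nearest, had 4.96 on the moderate array, 4.03 on profound 1 and 4.20 on profound 2, against 4.05 on the control array.

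CTSO, a cysteine protease, had 6.18 on the moderate array, 6.66 on profound 1 and 6.07 on profound 2, against 5.95 on the control array. Profound 1 was the high one, 0.71 above control (1.64-fold) and 0.59 above profound 2. CTSF, also a cysteine protease, had the reverse order of arrays. Its levels were 3.27 on the moderate array, 2.87 on profound 1 and 3.46 on profound 2, against 3.66 on the control array. They were graded, as the moderate array also lay below control, by -0.39. The profound 1 level of CTSF lay below the table median, and its difference from control was -0.78 (1.72-fold). CTSK, the collagen-degrading cathepsin of osteoclasts, had 3.94 on the moderate array, 4.14 on profound 1 and 3.21 on profound 2, against 3.70 on the control array. Both profound arrays lay on opposite sides of control, at 0.44 and -0.49.

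The aminopeptidase CTSH and CTSW, the second of which is typical of NK and cytotoxic T cells, were higher on the moderate array than on profound 1. The levels of CTSH were 3.93, 3.14 and 3.64 on the moderate, profound 1 and profound 2 arrays, against 3.44 on the control array. Those of CTSW were 5.71, 5.00 and 5.26, against 5.39. The mean over the 9 T and NK markers was 3.17, 3.08 and 3.19 on the same 3 arrays, against 3.05 on the control array, and that over the 6 osteoclast markers was 3.17, 3.01 and 3.04, against 3.10. Their part in the CTSW and CTSK values was not tested.

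Among the transcription factors only TFE3 was measured well. It had 6.99 on the moderate array, 6.91 on profound 1 and 6.80 on profound 2, against 6.89 on the control array, a flat profile with differences of 0.10, 0.02 and -0.08. TFEB had 2.77, 2.87 and 2.78 on these arrays, against 2.60 on the control array, and MITF had 2.28, 2.23 and 2.02, against 2.32. Both lay under the table median throughout, where the order over the arrays cannot be read with confidence.

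Between the 2 profound hairpins, CTSK (0.93) and CTSO (0.59) were higher on profound 1 and CTSF (-0.59) was lower. That is 2 of 46 higher (4.35%) and 1 lower, where 2.06% of tested genes were higher and 2.95% lower. Counts of 2 and 1 in 46 cannot be told apart from these shares. CTSO and CTSF lie at the edge of the limit. After cyclic loess normalisation they were 0.58 and -0.58 and no longer past it, and CTSO was 0.58 and short of it after centring of the arrays. The 0.93 of CTSK compares with a spread of 0.28 at its level. CD68 and MCOLN2 differed by 0.07 and 0.09 between the profound arrays, well within the spread of 0.21 and 0.28.

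Both profound arrays against the moderate array gave 2 of 46 genes higher, CD68 and ATP6V1E1, and 1 lower, CTSE, where 0.296% of tested genes were higher and 0.487% lower on both. The moderate array is the outlying one for ATP6V1E1 and CTSE, as its level lay apart from the control array too. For CD68 the moderate and control arrays lay together. SCARB2 was 0.84 and 0.48 above the moderate array, past the limit on profound 1 only, and MCOLN2 was 0.59 and 0.50 above it. Over all 46 genes, the median of the mean of both differences was 0.08 against the moderate array (0.12 with the arrays centred on tested genes) and 0.09 against control. Centring moved the tested genes by the same amount.

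Other genes of the lysosome were followed in 7 lists of related function, of which 125 of 140 genes were measured. The others were not analysed here. The 25 other hydrolases had median differences from control of 0.09 on the moderate array, 0.22 on profound 1 and 0.11 on profound 2. On profound 1, 3 of the 25 were higher and 0 lower, beside 2.68% and 4.04% of tested genes. DNASE2, which degrades the DNA of engulfed cells, had 4.60 on the moderate array, 5.36 on profound 1 and 4.57 on profound 2, against 4.38 on the control array, a high value on profound 1 alone. The other 2 were MANBA, a mannosidase, at 0.68 on profound 1 and -0.04 on profound 2, and ASAH1, the acid ceramidase, at 0.63 and 0.31. SGSH, a sulfatase of heparan sulfate breakdown, was 0.55 and 0.25 above control, and SMPD1, the acid sphingomyelinase, 0.23 and 0.36. Not all hydrolases lay above control. HYAL2, a hyaluronidase, differed by -0.38 on profound 1 and -0.33 on profound 2, and LGMN, the protease legumain, by -0.08 and -0.39 at levels below the table median.

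The 27 other membrane proteins and transporters had medians of 0.13 on the moderate array, 0.18 on profound 1 and 0.07 on profound 2. TPCN1, a cation channel, was 0.70 and 0.41 above control on profound 1 and profound 2, and CLCN7, the chloride-proton exchanger of lysosomes, 0.60 and 0.27. SLC11A1, a metal transporter of macrophages, was 0.76 above control on profound 1, where it was above the table median on that array only. LAPTM4B was lower on both, with 4.72 on the moderate array, 4.48 on profound 1 and 4.51 on profound 2, against 5.12 on the control array. OSTM1, the partner subunit of CLCN7, was 0.39 and 0.46 above control, and SLC15A3, a peptide and histidine transporter, 0.43 and 0.39. In all, 3 of the 27 were higher and 1 lower on profound 1, where 2.68% and 4.04% of tested genes were, and 0 were higher and 1 lower on profound 2, where 1.2% and 1.01% were. The 7 other V-ATPase subunits, mostly forms of other tissues of which 3 passed the filter, had 0 genes past the limit and medians of 0.08, 0.16 and 0.11. Over the 3 that passed the filter the medians were 0.08, 0.11 and 0.28, so that profound 2 was the higher of the profound arrays. TCIRG1, an a subunit of the V0 sector, was 0.11 and 0.29 above control on profound 1 and profound 2, and ATP6V1C2 0.43 and 0.28. ATP6V1B1 (0.28 and 0.40) and ATP6V1G3 (-0.11 and -0.27) lay below the table median.

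Genes that sort enzymes to lysosomes had 0 of 19 past the limit against control, with medians of 0.03, 0.12 and 0.02 on the moderate, profound 1 and profound 2 arrays. Of tested genes, 2.68% were higher and 4.04% lower on profound 1, and 1.2% and 1.01% on profound 2. M6PR, the mannose 6-phosphate receptor that carries hydrolases from the Golgi, differed from control by -0.52 on profound 1 and 0.07 on profound 2. VPS41 and VPS33A, which belong to the tethering complex of late endosomes and lysosomes, were 0.49 and 0.20, and 0.30 and 0.24, above control, and the adaptor subunit AP1S1 0.15 and 0.17. Of 18 genes of TFEB control at the lysosome, DEPTOR, an inhibitor of the kinase mTOR, was the only one higher on both profound arrays. It had 5.79 on the moderate array, 6.51 on profound 1 and 6.23 on profound 2, against 5.35 on the control array, which are differences of 0.44, 1.15 and 0.88. RRAGD, a Rag GTPase, differed from control by 0.58 on profound 1 and -0.25 on profound 2, and TFEC, a relative of TFEB, was 0.51 and 0.37 above. PPP3R1, the regulatory subunit of calcineurin, was 0.21 and 0.31 above. The list had 1 of 18 higher and 0 lower on each profound array, beside the shares of tested genes given above. A count of 1 in 18 cannot be told apart from such shares. The medians of the list were 0.07, 0.19 and 0.10 on the moderate, profound 1 and profound 2 arrays.

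Of 20 autophagy genes, 2 were higher on profound 1 and 0 on profound 2, where 2.68% and 1.2% of tested genes were higher, and 0 were lower on either. BECN1, a scaffold of the lipid kinase that starts autophagosomes, was 0.80 and 0.46 above control, and NBR1, a cargo receptor, 0.80 and 0.23. OPTN, another cargo receptor, lay below control on both, at -0.26 and -0.44. ATG9B, dim on most arrays, differed by -0.08 and -0.44. The list medians were 0.05, 0.07 and 0.01 on the moderate, profound 1 and profound 2 arrays. Among the 9 inhibitors of cathepsins and related proteases, CSTA, a cytosolic cystatin, had 7.94 on the moderate array, 6.79 on profound 1 and 7.85 on profound 2, against 8.05 on the control array. Its difference on profound 1 was -1.25, and it was close to control elsewhere. CST7, the cystatin that restrains cathepsin C, differed by -0.41, -0.45 and -0.75 and passed the limit on profound 2. SERPINB8, a serine protease inhibitor, was 0.25 and 0.27 above control on profound 1 and profound 2, and SERPINB3, below the table median, differed by 0.25 and -0.27. Thus 1 of 9 was lower on each profound array and 0 higher, where 4.04% of tested genes were lower on profound 1 and 1.01% on profound 2. In a list of 9, a count of 1 cannot be told apart from such shares. The medians of the 9 were 0.05, 0.09 and 0.06 on the moderate, profound 1 and profound 2 arrays, and 0.05, 0.09 and 0.14 over the 7 that passed the filter.

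**Figure D4:**
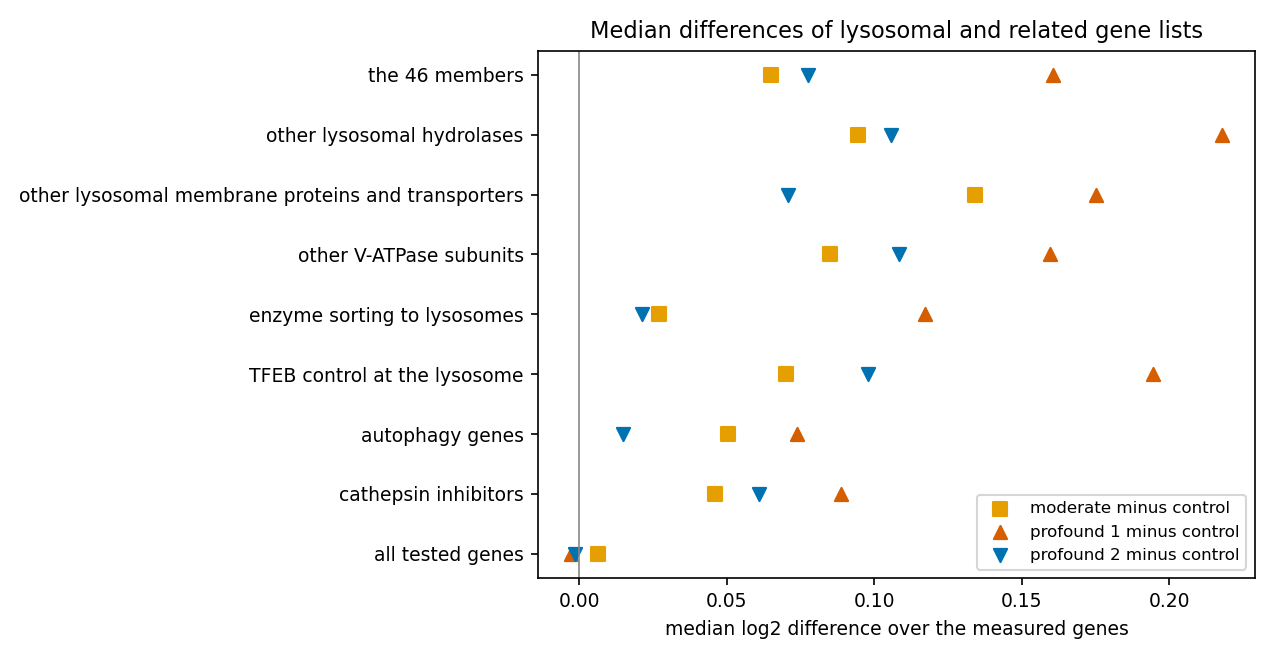
Median log2 difference from the control array (horizontal axis) over the 46 lysosomal genes, all measured genes of 7 related lists, dim ones included, and all tested genes, with 1 symbol for each of the moderate, profound 1 and profound 2 arrays. Each list lies right of 0 on all 3 arrays and farthest right on profound 1, where the other hydrolases reach 0.22. All tested genes lie within 0.01 of 0. Medians over genes that passed the filter are not drawn. By those, the other V-ATPase subunits and the cathepsin inhibitors were highest on profound 2 (0.28 and 0.14).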

How the data were processed

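The 4 arrays cover 53617 probe sets. Per the submitters' processing notes, the authors used RMA, Transcriptome Analysis Console 1.0 and Affymetrix Expression Console 1.3.1, and the values they deposited are log2 signals. RMA corrects background, equalises the distributions of the arrays and summarises probes, so a shift common to most genes cannot be seen, and differences of dim probe sets are understated. The genome build of the annotation was not given in the sources used here, nor were the settings. Array medians lay between 3.07 and 3.09, and 1 array per group limits the precision.

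Symbols came from the platform annotation, where 23871 probe sets name 1 gene, 1842 several and 27904 none; 655 were updated and 4 left unmatched through the RefSeq table of GRCh38.p14. Where a gene had more than 1 probe set, that with the highest mean stood for it. Tested genes are protein coding and exceed the table median on at least 1 array. No test was made. The spread given beside a difference is the scaled median absolute deviation over tested genes in 1 of 6 classes of level. Every column was used (0 unused columns).

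Genes given on all 4 arrays follow a rule: members past 1.5-fold in any of 6 comparisons, the transcription factors, and in each role the highest mean and the 2 widest ranges. Others were added for their role after their values were seen. From each related list come the 2 largest differences on each profound array and the 3 whose smaller difference of the same sign in both was largest. CLCN7 was added because it passed the limit. The members and lists were chosen with earlier results of these data known. Alternatives were cyclic loess (limma 3.58.1 in R 4.3.3), centring on tested genes, filters, fold limits and group means. Tables and figures were made in Python 3.11.15 with numpy 2.4.6, pandas 2.3.3 and matplotlib 3.10.9.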

Additional observations from a re-analysis of the deposited data

How the results depend on the processing

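No paired analysis was possible because each group has 1 array, and no replicate could be left out. Of 42 alternative counts of genes past the limit, 25 stayed within 1.5 times of the reported count, and 17 did not. The 25 include the mean over probe sets in each comparison, which could not change. Most of the 17 follow from the fold limit itself. At 2-fold the counts were 1 for the moderate array against control (2 at 1.5-fold), 0 for profound 1 (6), 0 for profound 2 (2), 0 for both profound arrays (2), 0 between the profound arrays (3) and 0 for both against the moderate array (3). At a limit of 0.32 on the log2 scale they were 5, 17, 6, 5, 10 and 6 in the same order. With members above the 75th percentile of the table (5.05) alone, fewer genes were counted. The counts were then 1 for the moderate array, 1 for profound 2, 1 for both profound arrays and 1 between the profound arrays. Shares of tested genes under these other limits and filters were not taken, so these counts have no background to be read against. After cyclic loess 1 remained between the profound arrays, where CTSO at 0.5776 and CTSF at -0.5841 fell short; CTSO was 0.5827 after centring. Of 30 alternative medians over the 46 genes, 29 stayed within 0.05, a tolerance close to some of the medians themselves. Centring on tested genes took that of the moderate array to 0.027 (from 0.0651). It took that of both profound arrays against the moderate array to 0.1197 (from 0.0766). The tested genes moved by the same amounts. The median of both profound arrays against control became 0.1433 (from 0.0850) above the 75th percentile. Of 90 alternative medians by role, 75 stayed within that limit, 14 did not and 1 turned its sign. The 14 include group means of the membrane proteins (0.3121 on profound 2, 0.3641 on both profound arrays and 0.3163 against the moderate array), of the other lumenal proteins (0.1454, 0.3093 and 0.233 on the moderate, profound 1 and profound 2 arrays, and 0.2712 on both), of the cathepsins (0.0268 on profound 1, -0.1659 against the moderate array) and of the transcription factors (-0.0773 against the moderate array). The others are medians of the other lumenal proteins without LIPA (0.4673, 0.2244 and 0.3233 on profound 1, profound 2 and both, and 0.1718 between the profound arrays). The sign turned for the V-ATPase on the moderate array, with a mean of -0.0149 beside a median of 0.0653, with ATP6V1E1 in the mean. Taking the mean over probe sets changes no member, as each has 1, so its counts and medians, counted above as unchanged, are no check. The filter at the table median likewise drops none of the 16 V-ATPase genes and none of the 7 membrane proteins. Their medians could not move under it. Signal near background limits the 4 genes below the table median and the CTSF level on profound 1.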
